A study of Mus musculus with 8 samples.

Results

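Alveolar fibroblasts are the interstitial cells of the gas-exchange region, where they lay down matrix and signal to the alveolar epithelium. Lipofibroblasts are the lipid-droplet-bearing cells described among them in rodent lung. A set of 10 genes used to mark these cells was followed in lung mesenchyme of adult mice after deletion of Hhip, which encodes a membrane protein that binds and limits hedgehog ligands. The genes are Tcf21, Npnt, Fgfr4, Inmt, Ces1d, Limch1, Plin2, Gyg, Macf1 and Slc7a10. Each was taken by its symbol from the 31607 genes of the authors' deposited comparison, and all 10 were found and tested. Not all of them are exclusive to fibroblasts. Plin2 is also made by alveolar type 2 cells and macrophages, and Macf1 is broadly expressed.

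The HhipCKO mice were homozygous for Hhipflox and carried tamoxifen-activated recombinase drivers, among them Myh11creER, which acts in smooth muscle. Control mice were Hhipflox/flox without a driver. Mice of both groups received tamoxifen. Since only the HhipCKO mice carried a driver, recombinase activity and the deletion cannot be told apart between the groups. Live cells that lacked CD45, CD31 and Epcam were sorted, and RNA of 4 libraries per group was sequenced in bulk. The extraction text speaks of cultured cells, and no source used here says whether a culture step came after the sort.

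The authors' deposited table holds 1 comparison and no value per library, so levels by library are not analysed here. It gives a mean normalized count over all 8 libraries, a log2 ratio of HhipCKO to Control with a standard error (SE), and a Wald test adjusted by Benjamini-Hochberg. A gene is called here at an adjusted p under 0.05. The mean normalized counts sum to 128669692 over all genes. Hhip itself had a log2 difference of -2.62 ± 0.32 (SE, adjusted p = 9.55e-13) per the authors' deposited table, from 61686 normalized counts in Control to 10030 in HhipCKO as implied by its mean and fold change. The general mesenchymal genes Col1a2 and Pdgfra had means of 926585 and 220760, against 750 for Ptprc and 655 for Epcam, per the authors' deposited table. Surfactant genes of alveolar type 2 cells were also present, with Sftpc at a mean of 103822.

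No gene of the set passed the threshold. Of the 10 genes, 0 rose and 0 fell at an adjusted p under 0.05 in the authors' Wald tests, where 6.98% of all 17469 tested genes did, 3.06% upwards and 3.92% downwards. At an unadjusted p under 0.05 there was 1, Gyg, against 21.8% of all tested genes. Values lay above 0 for 6 genes and below it for 4. The median log2 fold change was 0.07 beside 0.02 over all tested genes. The set was abundant, with mean normalized counts from 10959 to 533941, which together made 1.21% of all counts. Among the 2307 tested genes with a mean at least that of its lowest gene, 10.9% were called. Summed over the 10 genes, the level was 1581149 normalized counts in Control and 1543102 in HhipCKO, although Inmt and Macf1 make up most of these sums. In bulk RNA, fewer cells of a type and less RNA per cell cannot be told apart.

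**Figure D1:**
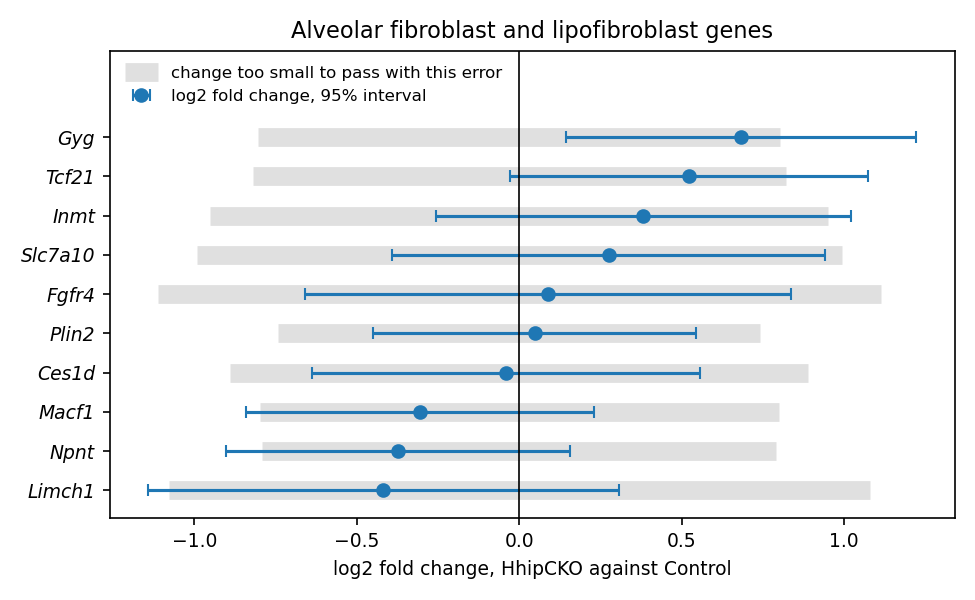
Log2 fold change of each gene, HhipCKO against Control (horizontal axis), with its 95% interval; the grey band spans the changes that would not have reached an adjusted p under 0.05 with that gene's error. All 10 points lie inside their bands, and Gyg, at 0.68, is the gene whose interval lies wholly above 0.

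Tcf21 encodes a basic helix-loop-helix transcription factor needed for lung mesenchyme development and used to mark the lipofibroblast lineage. It was present at 24458 normalized counts in Control and 35147 in HhipCKO, both implied by the mean of 29803 and the fold change per the authors' deposited table. The log2 fold change was 0.52 ± 0.28 (SE, 95% interval -0.03 to 1.07), and its adjusted p was 0.260 per the authors' deposited table. The interval reaches from no difference to above 2-fold. The gene (ENSMUSG00000045680) spans positions 22817281 to 22820174 of chromosome 10 (minus strand, GRCm38). Among the helix-loop-helix proteins that can pair with factors of this class, Tcf12 fell, at -0.77 ± 0.20 (SE, adjusted p = 0.00547), while Tcf3 and Tcf4 had values of 0.04 ± 0.09 and 0.09 ± 0.24 (SE) per the authors' deposited table. Tcf12 has a transcript of 6299 bases, and with the length trend described below removed its value was -0.63, with an adjusted p of 0.0547 recomputed from the error of the authors' deposited table.

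Fgfr4 encodes a receptor for fibroblast growth factors and contributes, with Fgfr3, to alveolar septation in mice. Its implied levels were 20324 normalized counts in Control and 21610 in HhipCKO. At 0.09 ± 0.38 (SE, adjusted p = 0.929) per the authors' deposited table, it had the widest error of the 10 genes. The 95% interval of the fold ran from 0.634 to 1.78, and so spans changes in both directions. Its relatives Fgfr1, Fgfr2 and Fgfr3 had log2 fold changes of -0.13 ± 0.12, 0.45 ± 0.26 and 0.31 ± 0.21 (SE) per the authors' deposited table, and none passed. Klb, a co-receptor of Fgfr4 for endocrine ligands, was close to the lower limit of the tested genes, at a mean of 42.9 per the authors' deposited table. Fgfr4 (ENSMUSG00000005320) spans positions 55152640 to 55168759 of chromosome 13 (plus strand, GRCm38).

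Npnt encodes nephronectin, a secreted matrix protein bound by the integrin made of Itga8 and Itgb1. Its implied levels were 228563 normalized counts in Control and 176530 in HhipCKO. The log2 fold change was -0.37 ± 0.27 (SE, 95% interval -0.90 to 0.16), and its adjusted p was 0.446 per the authors' deposited table. Itga8 and Itgb1 stood at -0.07 ± 0.25 and -0.18 ± 0.14 (SE) per the authors' deposited table, so no part of the ligand and receptor trio passed. Npnt (ENSMUSG00000040998) spans positions 132881745 to 132950291 of chromosome 3 (minus strand, GRCm38).

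Enzymes of small-molecule metabolism were the next group. Inmt, which encodes an indolethylamine N-methyltransferase and is highly expressed in lung, was the most abundant gene of the set. It had implied levels of 463612 normalized counts in Control and 604269 in HhipCKO and a log2 difference of 0.38 ± 0.33 (SE, adjusted p = 0.537) per the authors' deposited table. The related methyltransferase gene Nnmt had a value of 0.33 ± 0.14 (SE, adjusted p = 0.125) per the authors' deposited table. Inmt (ENSMUSG00000003477) spans positions 55170626 to 55175043 of chromosome 6 (minus strand, GRCm38).

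Ces1d encodes a carboxylesterase that hydrolyses lipid esters. It was the gene nearest to no difference, with implied levels of 65101 normalized counts in Control and 63331 in HhipCKO and a log2 difference of -0.04 ± 0.30 (SE, adjusted p = 0.964) per the authors' deposited table. The 95% interval of the fold ran from 0.643 to 1.47. The gene (ENSMUSG00000056973) spans positions 93166068 to 93197838 of chromosome 8 (minus strand, GRCm38), within a cluster of near relatives, so reads could in principle be split between copies. Of the 50-base windows of its longest GENCODE transcript, 1.28% occurred in a transcript of another gene, namely Ces1b, Ces1f or Ces1g. Ces1b shares the longest run, 66 bases of coding sequence in exon 9, and its level is not analysed here. The longest run shared with Ces1g is 57 bases of coding sequence across exons 13 and 14, between chr8:93166433-93169771 on the minus strand, and is printed because reads inside it fit both genes equally. Ces1f carries 53 bases of the same run.
Ces1d and Ces1g: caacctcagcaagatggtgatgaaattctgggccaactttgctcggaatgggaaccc
Of these 3 relatives, the ones with a level here were scarce, with means of 168 for Ces1f and 132 for Ces1g per the authors' deposited table, against 64216 for Ces1d. Ces1f had a log2 difference of -1.43 ± 0.55 (SE, adjusted p = 0.0870) and Ces1g of -0.31 ± 0.40 (SE) per the authors' deposited table.

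Gyg encodes glycogenin, the protein that primes glycogen synthesis and that appears in published lipofibroblast marker sets. It came closest to the threshold. Implied levels were 22495 normalized counts in Control and 36105 in HhipCKO, a 1.61-fold difference with a 95% interval from 1.10 to 2.33. The log2 fold change was 0.68 ± 0.28 (SE), with an unadjusted p of 0.0131 and an adjusted p of 0.109 per the authors' deposited table. With the error of this gene, a log2 change of 0.80 would have been needed for a call. Of 21 tested genes of glycogen synthesis and breakdown, 0 passed the authors' Wald test, where 6.98% of all tested genes did. Values lay above 0 for 13 and below it for 8, and the median log2 fold change was 0.03. At an unadjusted p under 0.05 there were 2, against 21.8% of all tested genes. The 2 were Ppp1r3b and Ppp1r3d, which encode subunits that target a phosphatase to glycogen, at 0.48 ± 0.23 and 0.44 ± 0.18 (SE, adjusted p = 0.199 and 0.114) per the authors' deposited table. The abundant glycogen genes Gaa, Ugp2 and Gsk3b stood at -0.11 ± 0.12, -0.16 ± 0.12 and -0.02 ± 0.09 (SE) per the authors' deposited table. Gys1, the muscle-type glycogen synthase that extends the primer, had 0.14 ± 0.21 (SE) per the authors' deposited table. Gyg (ENSMUSG00000019528) spans positions 20122084 to 20155317 of chromosome 3 (minus strand, GRCm38).

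The promoter windows of Gyg and Tcf21, the genes with the smallest p-values, are printed below from RefSeq on GRCm38.p6, from 250 bases before to 50 bases after an annotated start. Capitals mark the letters CANNTG, the E-box read by helix-loop-helix factors such as the product of Tcf21. The Gyg window is chr3:20155067-20155366 on the minus strand and the Tcf21 window is chr10:22820094-22820393 on the minus strand.
Gyg: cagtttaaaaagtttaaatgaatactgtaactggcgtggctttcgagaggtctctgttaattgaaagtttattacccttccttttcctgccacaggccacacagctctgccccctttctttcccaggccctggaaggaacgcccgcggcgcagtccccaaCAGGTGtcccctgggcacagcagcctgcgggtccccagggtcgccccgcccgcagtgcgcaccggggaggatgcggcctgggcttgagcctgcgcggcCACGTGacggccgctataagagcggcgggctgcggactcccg
Tcf21: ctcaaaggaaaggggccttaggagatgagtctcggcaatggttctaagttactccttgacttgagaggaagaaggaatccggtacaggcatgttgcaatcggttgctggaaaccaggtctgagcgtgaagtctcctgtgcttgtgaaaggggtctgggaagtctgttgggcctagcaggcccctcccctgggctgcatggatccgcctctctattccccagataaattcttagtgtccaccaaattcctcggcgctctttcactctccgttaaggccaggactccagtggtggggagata
The Gyg window holds 2 such matches and the Tcf21 window 0. RefSeq windows were at hand for 9 of the 10 genes, 12 in all, and 9 of these windows hold at least 1 E-box, beside 72.3% of 32544 promoter windows of the same length. The Gli motif GACCACCCA, searched on both strands with up to 1 mismatch, was in 0 of the 12 windows and in 6.77% of all windows. No match says only that these letters are not in these windows.

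Plin2 encodes perilipin 2, the coat protein of lipid droplets. Its implied levels were 11386 normalized counts in Control and 11765 in HhipCKO, with a log2 difference of 0.05 ± 0.25 (SE, adjusted p = 0.946) per the authors' deposited table. This was the smallest error of the set, and the 95% interval of the fold ran from 0.732 to 1.46. Of 25 tested genes of lipid storage and uptake, 0 passed the authors' Wald test, where 6.98% of all tested genes did. At an unadjusted p under 0.05 there was 1, against 21.8% of all tested genes. The median log2 fold change of the 25 was 0.11. The list held 29 genes, and those without an adjusted p had means under 42.1. Of these, Plin1 and Cideb had values of 1.35 ± 0.58 and 1.98 ± 0.80 (SE) per the authors' deposited table. Their unadjusted p-values in the authors' Wald tests were 0.0189 and 0.0137. Plin5 and Cidec stood at -1.41 ± 1.03 and -0.07 ± 1.02 (SE) per the authors' deposited table. Lpl, the lipoprotein lipase that supplies fatty acids, stood at -0.10 ± 0.26, Vldlr, a lipoprotein receptor, at 0.07 ± 0.14, and the transcription factor gene Cebpb at 0.23 ± 0.27 (SE) per the authors' deposited table. Pparg, the lipogenic nuclear receptor, was scarce at a mean of 443 and had a value of 0.18 ± 0.32 (SE) per the authors' deposited table. Pth1r, the receptor through which parathyroid hormone-related protein acts on lipofibroblasts in rodents, was the 1 tested gene of the list with an unadjusted p under 0.05. It stood at 0.37 ± 0.13 (SE, adjusted p = 0.0515) per the authors' deposited table. It passed at 0.0439 when p-values were adjusted only over genes with a mean of at least 500, of which 9.16% were called. With the length trend described below taken out, Pth1r stood at 0.29 and did not pass (adjusted p = 0.232, recomputed from the authors' deposited table). Plin2 (ENSMUSG00000028494) spans positions 86648386 to 86670060 of chromosome 4 (minus strand, GRCm38), and 4.89% of its 50-base windows also occur in Gm12551.

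Markers of other droplet-bearing cells were examined beside Plin2. The adipocyte genes Adipoq, Retn, Cfd and Ucp1 were near 0, with means of 6.87, 2.96, 11.2 and 2.63 per the authors' deposited table. Plin1 and Cidec, droplet proteins of adipocytes, had means of 34.4 and 21.5. Lipe and Adrb3, also on the adipocyte list, were not near 0, with means of 3773 and 3200 per the authors' deposited table. Their log2 fold changes were 0.15 ± 0.15 and 0.48 ± 0.40 (SE) per the authors' deposited table, and neither passed. All 11 alveolar type 2 markers had positive values, with a median of 1.41 and none past the threshold in the authors' Wald tests, at errors from 0.43 to 1.47. Their summed implied level was 134182 normalized counts in Control and 325614 in HhipCKO. Of 11 tested macrophage markers 9 had positive values, with a median of 1.23, and 1 rose, Ccr2, at 1.70 ± 0.58 (SE, adjusted p = 0.0499) per the authors' deposited table. Their summed implied level did not go the same way, at 15004.8 normalized counts in Control and 14234.2 in HhipCKO, and the most abundant of them, Mertk and Csf1r, had values of -0.28 ± 0.27 and -0.59 ± 0.39 (SE) per the authors' deposited table. Over the 4 macrophage markers with a mean of at least 500 the median was 0.54. Ccr2 did not pass under median centring (adjusted p = 0.0518), or with the length trend taken out (adjusted p = 0.0553), both recomputed from the authors' deposited table. The part of these cells in the Plin2 value was not tested.

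Slc7a10 encodes a neutral amino acid transporter that works as a pair with the heavy chain made from Slc3a2. Its implied levels were 9915 normalized counts in Control and 12003 in HhipCKO, with a log2 difference of 0.28 ± 0.34 (SE, adjusted p = 0.701) per the authors' deposited table. Slc3a2 had a value of -0.08 ± 0.18 (SE) per the authors' deposited table. The gene (ENSMUSG00000030495) spans positions 35186385 to 35201114 of chromosome 7 (plus strand, GRCm38), where 17.9% of its exonic bases are also exonic in Lrp3 on the opposite strand. Lrp3 had a mean of 6677 and a value of -0.11 ± 0.14 (SE) per the authors' deposited table. Whether the counting used strand is not given in the sources used here, so reads of the pair may not be separate. None of the other 9 genes shares exonic bases with an annotated neighbour.

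Limch1 and Macf1 encode proteins of the cytoskeleton. Limch1, an activator of non-muscle myosin in cultured human cells, had implied levels of 204077 normalized counts in Control and 152732 in HhipCKO. At -0.42 ± 0.37 (SE, adjusted p = 0.555) per the authors' deposited table, it had the lowest value of the set, with an interval from -1.14 to 0.31. Its paralog Lmo7 fell, at -0.94 ± 0.31 (SE, adjusted p = 0.0437) per the authors' deposited table, although it did not pass once the length trend was taken out (-0.81, adjusted p = 0.144) or with no filter on low means (adjusted p = 0.0742). Limch1 (ENSMUSG00000037736) spans positions 66745827 to 67057158 of chromosome 5 (plus strand, GRCm38).

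Macf1, a giant linker of actin filaments and microtubules, had implied levels of 531217 normalized counts in Control and 429609 in HhipCKO. Its log2 fold change was -0.31 ± 0.27 (SE, adjusted p = 0.561) per the authors' deposited table. The other large linkers of its family, Dst and Plec, fell, at -0.55 ± 0.12 (SE, adjusted p = 0.000383) and -0.57 ± 0.15 (SE, adjusted p = 0.00715) per the authors' deposited table. The error of Macf1 was wider than that of either, and whether their changes differ was not tested. Once the length trend was taken out, neither kept its call, at -0.08 for Dst (adjusted p = 0.809) and -0.20 for Plec (adjusted p = 0.591), recomputed from the errors of the authors' deposited table. Macf1 (ENSMUSG00000028649) spans positions 123349633 to 123684360 of chromosome 4 (minus strand, GRCm38). Over the whole list of 25 tested paralogs and partners of the 10 genes, 0 rose and 4 fell in the authors' Wald tests, namely Tcf12, Lmo7, Dst and Plec, where 3.92% of all tested genes fell. The list's median log2 fold change was -0.10, and 0 of its genes passed with the length trend taken out.

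**Figure D2:**
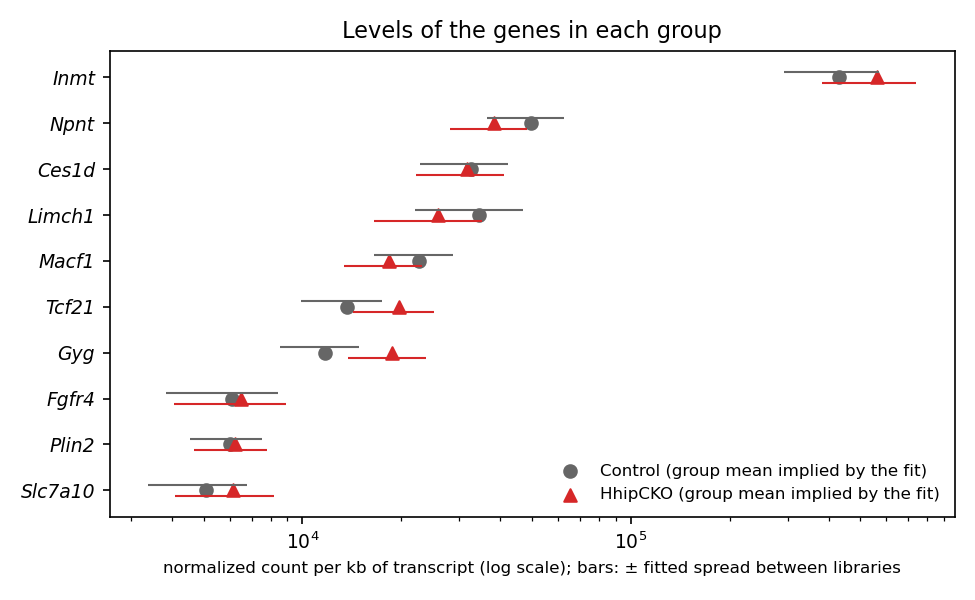
Group levels of the 10 genes implied by the authors' mean and fold change, per kb of the longest transcript (horizontal axis, log scale); bars are ± the spread between libraries implied by the fit. The ranges of Control and HhipCKO overlap for every gene, and Inmt stands apart from the rest.

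Per kb of transcript, the levels fell into a wide order. Inmt led with 495767 normalized counts per kb over all libraries, 11.3 times the 43851 of Npnt. Ces1d (32044), Limch1 (30223), Macf1 (20447), Tcf21 (16668) and Gyg (15245) followed in normalized counts per kb. This order is that of the mean over both groups and changed among these 5 genes within a group. In Control, Limch1 (34572) stood above Ces1d (32485), and in HhipCKO, Macf1 (18285) stood below Tcf21 (19657) and Gyg (18785), in implied normalized counts per kb. The lowest were Fgfr4 at 6308, Plin2 at 6131 and Slc7a10 at 5611 normalized counts per kb. Of the 9 pairs of neighbours in this order, 7 overlapped within the spread between libraries. The exceptions were Inmt above Npnt and Gyg above Fgfr4.

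The sign of the values differed between the shortest and the longest transcripts. All 5 genes with a longest transcript under 2 kb (Tcf21, Inmt, Plin2, Gyg and Slc7a10) had positive log2 fold changes, and all 3 of at least 4 kb (Npnt, Limch1 and Macf1) had negative ones. The 2 genes between these limits did not keep to this order, since Ces1d (2004 bases) had a value of -0.04 and the longer Fgfr4 (3324 bases) 0.09, both well within their errors. A trend with length ran through the whole table. Tested genes between 1000 and 2000 bases had a median log2 fold change of 0.14, those between 4000 and 8000 bases -0.09, and those of at least 8000 bases -0.27. With a smooth trend on length subtracted, Macf1 (23495 bases) moved from -0.31 to 0.16 and Plin2 from 0.05 to -0.06, so the sign of each depended on this setting. Tcf21, Gyg and Inmt kept positive values of 0.41, 0.57 and 0.23, and Npnt and Limch1 kept negative ones of -0.32 and -0.29. Again 0 of the 10 genes passed, where 3.09% of the 17439 genes with a length did.

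**Figure D3:**
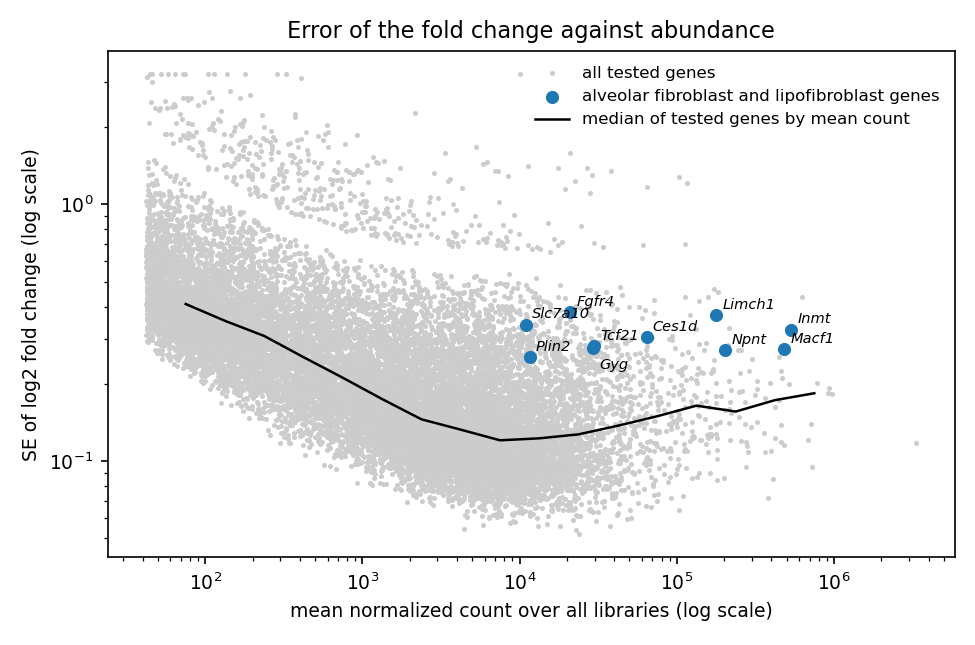
SE of the log2 fold change (vertical axis, log scale) against mean normalized count (horizontal axis, log scale) for all tested genes in grey, with their running median as a line and the 10 genes in blue. All 10 lie above the line, at errors from 0.25 to 0.38.

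The errors of these genes were large for their abundance. All 10 had a larger SE than the median of the 500 tested genes nearest in mean count, by 1.78 times for Npnt to 3.08 times for Fgfr4. Within those neighbours the 10 genes stood at percentiles 87.6 to 97.2. For the most abundant genes the match in mean was loose. The neighbours had means from 36172 to 3340493 for Inmt and Macf1, and from 36140 to 975871 for Npnt. Counting error at these depths is under 1% of the mean for each gene, while the SE implies a spread between libraries from 24.9% for Plin2 to 37.3% for Fgfr4. This spread comes from the authors' fitted dispersion, which DESeq-type tools draw towards a common trend, and is not a spread measured here. A call therefore needed a change of at least 1.67-fold for Plin2 and 2.16-fold for Fgfr4. For 6 of the 10 genes the 95% interval stays within 2-fold either way. It passes 2-fold for Tcf21, Gyg and Inmt upwards and for Limch1 downwards.

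Errors were wide in other marker lists too. The median ratio of the SE to that of genes of like mean was 2.11 over the 10 genes, 2.08 over 12 adventitial fibroblast markers and 2.12 over 12 smooth muscle and myofibroblast markers. It was 1.05 over the 21 glycogen genes, which are not subtype markers, and 9.97 over the 11 alveolar type 2 markers. The other lists lay between these values. Among them were 1.29 over lipid storage genes, 1.54 over endothelial markers, 1.93 over further alveolar fibroblast markers and 2.98 over alveolar type 1 markers. Among the adventitial, smooth muscle and myofibroblast markers, apart from Hhip, the calls were Ly6a and Myocd. They stood at 1.21 ± 0.20 and -1.22 ± 0.31 (SE) per the authors' deposited table.

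Further alveolar fibroblast markers were counted in the same way. Of 17 tested, 0 passed the authors' Wald test and 4 had an unadjusted p under 0.05, a share near the 21.8% of all tested genes. Values lay above 0 for 12 and below it for 5, and the median was 0.30 beside 0.02 over all tested genes. The list's median was 0.20 with the length trend taken out, with 13 values above 0 and 4 below. By Wald tests recomputed in that setting, 3 of the 17 had an unadjusted p under 0.05. The abundant markers Mfap4, Pdgfra and Gpc3 had log2 fold changes of 0.34 ± 0.27, -0.23 ± 0.19 and 0.32 ± 0.11 (SE) per the authors' deposited table. Gpc3, a heparan sulphate proteoglycan that restrains hedgehog signalling in mice, missed the threshold at an adjusted p of 0.0510 per the authors' deposited table. It passed at 0.0436 when p-values were adjusted only over genes with a mean of at least 500. With the length trend taken out, Gpc3 stood at 0.23 and did not pass (adjusted p = 0.279, recomputed from the authors' deposited table). Wnt2, Bmp3 and Adh1, a pair of secreted signals and a retinol-oxidising dehydrogenase, stood at 0.55 ± 0.27, 0.53 ± 0.23 and 0.48 ± 0.22 (SE) per the authors' deposited table. They were named, with Gpc3, as the genes with an unadjusted p under 0.05, after these were seen, and none of the 3 passed (adjusted p from 0.150 to 0.206 in the authors' Wald tests).

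Markers of other cells were counted for context in the authors' Wald tests. Of 12 adventitial markers 1 rose and 0 fell, and of 12 smooth muscle and myofibroblast markers, Hhip among them, 0 rose and 2 fell. Among 11 pericyte markers 1 rose, Kcnj8, and 1 fell, Trpc6, with a median of -0.33. Cartilage markers stood apart, with 6 of 10 tested fallen and a median of -1.88. Of 8 alveolar type 1 markers 1 fell, Akap5, and the values of all 8 were below 0 (median -0.44), although Akap5 did not pass with the length trend taken out (adjusted p = 0.157, from the authors' deposited table). No gene passed among 7 general mesenchymal, 6 mesothelial, 7 tested endothelial and 2 tested adipocyte markers or the 3 genes of the sort. How far any of these cells bear on the values of the 10 genes was not tested.

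**Figure D4:**
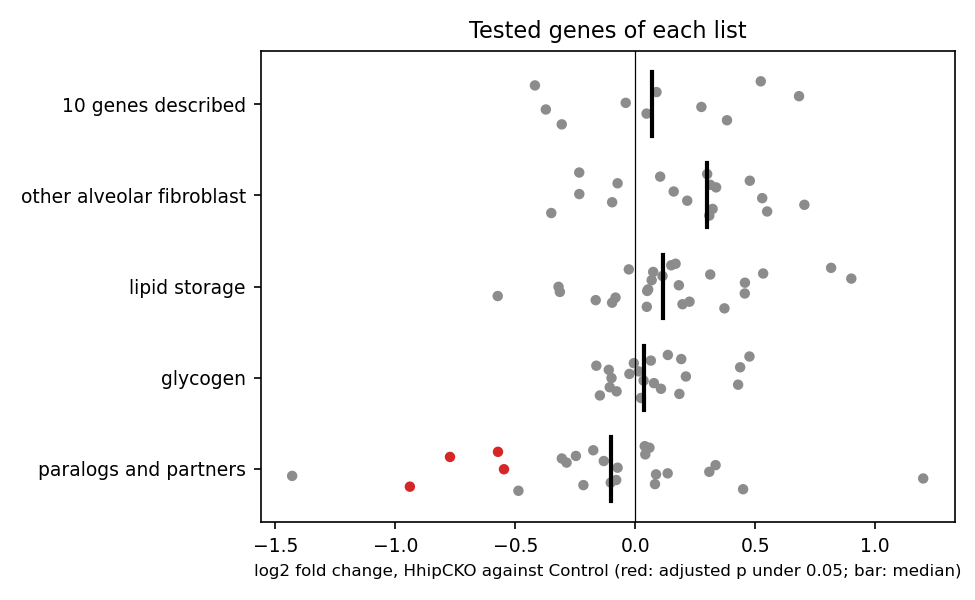
Log2 fold change (horizontal axis) of every tested gene in the set of 10 and in 4 related lists, with red points past an adjusted p of 0.05 and bars at the medians. The 4 red points are Tcf12, Lmo7, Dst and Plec in the list of paralogs and partners.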

How the data were processed

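Bulk RNA of sorted lung mesenchyme was compared between 4 HhipCKO and 4 Control libraries. A further part of the HhipCKO genotype is not reported here. The tools named are FastQC, STAR and DESeq, with the build GRCm38 (mm10), per the submitters' processing notes, and counting tool, annotation and strand setting are not given in the sources used here. The authors' deposited table gives a mean normalized count signal, a log2 fold change with its SE, a Wald score and p-values before and after adjustment, per the file headers, and 0 columns per sample. Depth per library is therefore not known, and planned fits on values per sample were not run. Labels do not say whether libraries came from separate mice, so p-values measure the spread between these libraries.

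Dividing the deposited fold change by its SE gave the deposited Wald score to within 2.56e-07. Group levels were derived from the mean count and fold change, and the spread between libraries by solving the negative binomial variance for the deposited SE with size factors of 1. Intervals at 95% assume a normal distribution. Transcript lengths, coordinates and shared 50-base windows came from GENCODE M21 on GRCm38. The length trend was a lowess curve with a span of 0.3 (statsmodels 0.14.6, Python 3.11.15). Removal of the length trend was tested on simulated data. The solving of the SE for the spread was tried on simulated counts fitted with their known dispersion. That checks the calculation only, since a dispersion estimated from the counts was not simulated.

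The 10 genes and the 16 gene lists were chosen with earlier results of these data known. Named genes are the 10, Hhip, list members past the threshold and the most abundant of each list; others, such as Pparg, Pth1r, Gys1, Nnmt and the Ces1 relatives, were added for their role or their values. Of the list entries, those without a matching symbol (Figf, Siglecf, Lep, Ces1b, Ces1c and Ces1h) were not analysed here. Alternatives were another or no filter on low values, median centring, removal of the length trend, division by the robust SD of the statistics, a minimum fold of 1.2 and Holm adjustment.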

Additional observations from a re-analysis of the deposited data

How the results depend on the processing

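Under the 7 alternatives the count of called genes among the 10 stayed at 0, with a lowest adjusted p of 0.0937. Of 70 values, 68 kept their direction, but only median centring and removal of the length trend alter a fold change. Under the other alternatives no direction could reverse. The reversals were Plin2 at -0.0645 and Macf1 at 0.16 with the length trend removed, the change being the subtracted trend itself. Over all genes the 1219 calls became 539 with the length trend removed, 129 under Holm adjustment, 62 at a minimum fold of 1.2 and 18 with statistics divided by their robust SD of 1.53. The 4 calls among paralogs and partners became 0 with the length trend removed, 0 with divided statistics, 0 at a minimum fold of 1.2 and 1 under Holm adjustment. Among genes with a mean of at least 500, the other alveolar fibroblast markers and the lipid storage list each went from 0 to 1 call, through Gpc3 and Pth1r, since fewer genes were adjusted for. Median centring, by 0.02, changed none of these counts by more than 1.5 times. Size factors recovered from the lowest values, between 0.939 and 1.06, moved the implied spreads by at most 0.0001 percentage points. Errors against the 100 nearest genes in place of 500, an alternative chosen after seeing the data, were 1.60 to 3.41 times the median. No paired analysis was possible because the table carries no values per replicate, and for the same reason no library could be left out in turn.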
